A study of Gasterosteus aculeatus with 29 samples.

Results

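The 200 genes described here were the abundant genes of the stickleback brain that differed most between fish of the same exposure group and sex. They were chosen by these very values from 17730 genes in the deposited table. A gene counted as abundant when its mean was at least 4 on the log2 CPM scale, the deposited log2 of reads relative to a scaled library size, over 27 libraries, which left 6731 genes. For each of them a linear model with the 4 exposure groups and sex was fitted, and the residual SD, the spread between fish that the model leaves over, was taken. A further 482 genes were left out because father, added to the model, had a p under 0.01. From the remaining 6249 genes the 200 with the highest residual SD were kept. Their residual SD and the way they group are therefore descriptions, given with no test.

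The libraries came from whole brains of individual three-spined stickleback (Gasterosteus aculeatus), a small fish in which the father alone guards the nest and tends the young. Fathers had met predation risk during care (5 fathers) or had not (5 fathers), and the offspring had or had not met predation risk themselves as juveniles. The 27 fish fell into neither exposure (n = 4, 3 fathers), paternal exposure only (n = 8, 5 fathers), personal exposure only (n = 9, 5 fathers) and both exposures (n = 6, 4 fathers), and 16 were labelled female and 11 male. Fish are named below by group and number, for example personal only 3. Neither the age of the fish nor their strain is given in the sources used here, and fish of 1 father are siblings.

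A whole brain pools neurons, glia, ependyma, vessel and blood cells, and often traces of tissue that touches the brain, such as the pituitary. Genes used by the same cell type or the same cellular state often vary together from one bulk sample to the next. In bulk RNA, fewer cells of a type and less RNA per cell cannot be told apart. The files do not pair the gene identifiers with names, and the reference table matched 0 of them, so no gene is given a name, a role or a sequence. The labelled tissue could for the same reason not be checked against marker genes.

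The table held 2244609 to 55155451 reads per library (median 8121703), spread over 5 sequencing lanes of 4 to 6 fish each. The depths of different lanes overlapped, from 6015286 to 15306115 reads in lane 5 and from 2244609 to 55155451 in lane 6. The rule left out 2 libraries, neither 3 and both 7. Neither 3 stood apart in the whole table: its reads in the table came to 61.2% of its scaled library size, against 44.6% to 46.9% in the 27. A pair of fish among the 27 was much closer than any other. Neither 5 and personal only 5, both labelled male offspring of father M33 and both run in lane 6, differed by a median of 0.0992 log2 units over the 200 genes, whereas the median over all 351 pairs of fish was 0.546 and the next closest pair differed by 0.197. Their values relative to the median fish correlated with r = 0.94 over the 200 genes, and the next highest r of any pair was 0.70. The squared difference between these libraries had a median of 1.02 times the read-sampling variance over the 200 genes. Read sampling alone gives a median of 0.455, and the second closest pair had 6.36. The labels give them as separate fish of different personal exposure. Whether they are libraries of 1 fish cannot be told from the files, and if they were, n and the comparison of personal exposure would change. Both were kept as labelled. The level of the module and gene that were highest in this pair, and the count for personal exposure, are also given without it.

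Residual SD ran from 0.4625 to 2.79 log2 units over the 200 genes, with a median of 0.623, and 38 genes exceeded 1. The median of the other 6531 abundant genes was 0.170. The edge of the rule was narrow: ENSGACG00000008810 was the last gene inside, with a residual SD of 0.4625, and ENSGACG00000020333 the first outside, with 0.4622. Of the 482 genes left out for father, 35 had a residual SD as high as the chosen genes. The chosen genes were not the scarcest of the abundant class, since 50.5% had a mean under 5 log2 CPM against 47.0% of the other abundant genes. Together they took 2.63% to 4.15% of a library's reads (median 3.27%).

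Counting error was small beside this spread. The SD that read sampling alone would give had a median of 0.0734 log2 units in the 200 genes, and their residual SD was 4.93 to 42.9 times the sampling SD of the same gene (median 9.47). Between the lowest and the highest fish, a gene's value differed by a median of 2.65 log2 units, which is 6.26-fold, and by 11.27 at most. Most of the spread did not come from a lone fish: in 7 genes a single fish carried over 50% of the residual sum of squares, and the median share of the most deviant fish was 20.7%.

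**Figure D1:**
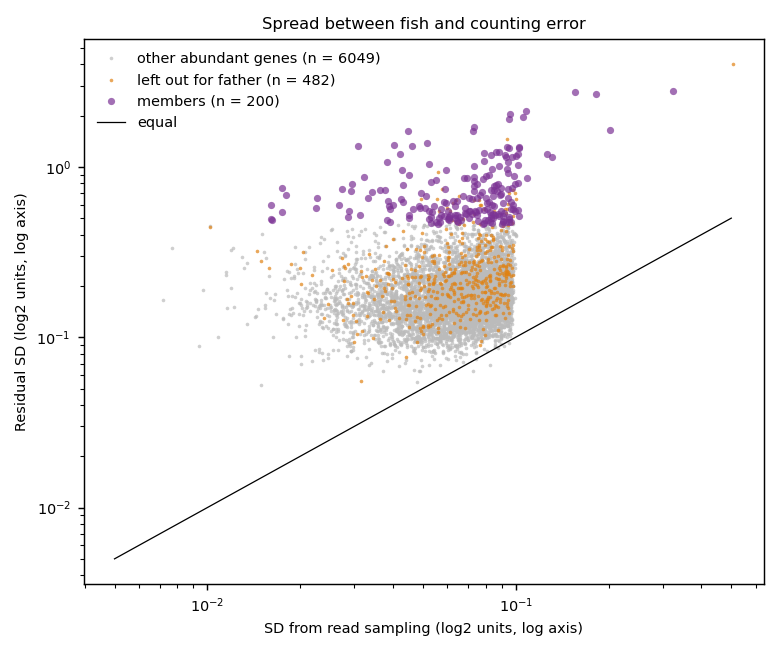
Residual SD of each abundant gene against the SD expected from read sampling, both in log2 units on log axes. Points are genes; the 200 chosen genes lie at 0.4625 and above on the vertical axis by construction, and all are at least 4.93 times above the line of equality.

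The gene with the widest residual spread was ENSGACG00000014031, with a residual SD of 2.79. In neither its 4 values were 6.84, 7.05, 6.86 and 7.13 log2 CPM. The lowest, median and highest values were 3.67, 6.59 and 7.22 in paternal only, -2.54, 6.78 and 7.18 in personal only and -3.97, 5.23 and 7.29 in both. In the first 3 of these groups most fish lay close to 7. A fish of each single-exposure group lay far below, and the fish with both exposures were divided. The count was 1 read in the lowest fish, both 2, so the distance there is imprecise. ENSGACG00000011018 showed the same few fish, with 7.28, 7.30, 7.27 and 7.29 log2 CPM in neither. Its lowest, median and highest values were 2.67, 6.98 and 7.70 in paternal only, -1.83, 7.21 and 7.45 in personal only and -1.83, 4.97 and 7.78 in both. The neither fish were nearly alike, while the other groups ranged from their level to far below it, so all groups overlapped.

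ENSGACG00000003787, with a residual SD of 2.76, behaved in another way. Its 4 neither values were 5.12, 6.82, 2.17 and 9.24 log2 CPM. The lowest, median and highest were -0.02, 5.88 and 7.79 in paternal only, 0.38, 4.84 and 9.79 in personal only and 0.14, 2.84 and 5.09 in both. Here the fish were spread widely within every group, the fish with both exposures over the lower part of the range, and the highest values, 9.79 and 9.24, belonged to the close pair personal only 5 and neither 5. Without both of them the highest value was 7.79 and the residual SD 2.56.

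**Figure D2:**
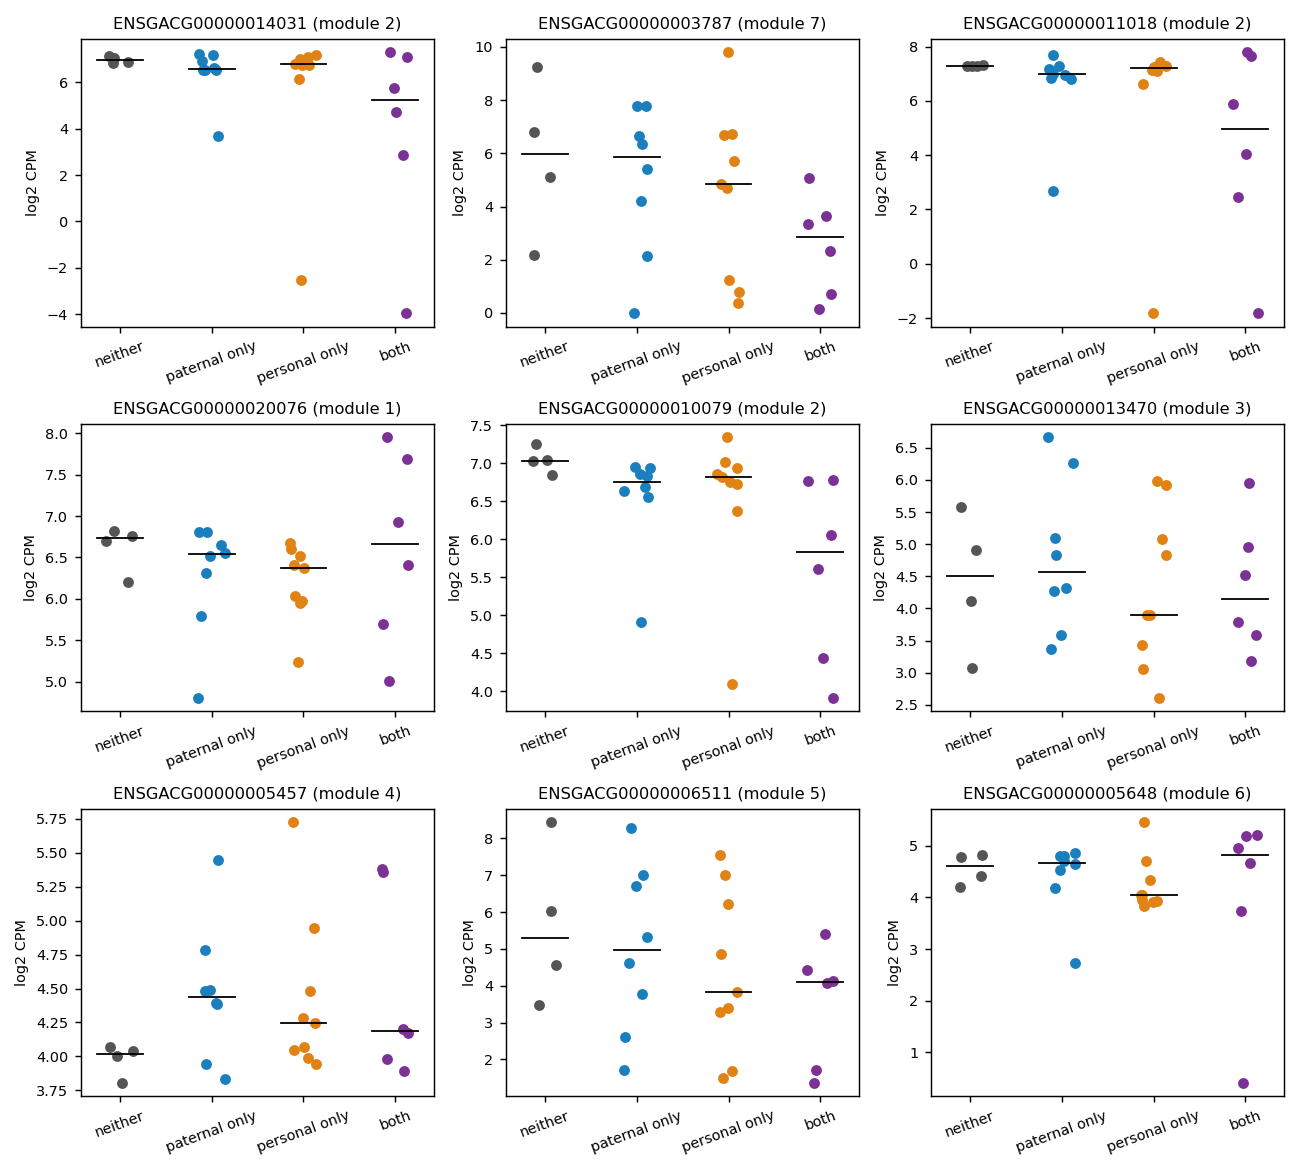
Deposited log2 CPM of 9 genes in each of the 27 fish, by exposure group; black lines are group medians. The first 3 panels are the genes of highest residual SD and the others a gene typical of each of modules 1 to 6. ENSGACG00000014031 lies near 7 in most fish and is at -3.97 in the lowest, whereas ENSGACG00000003787 is spread from -0.02 to 9.79.

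Many of the genes varied together across fish. Over the 19900 pairs of the 200 genes, the residuals correlated with r above 0.5 in 13.5% of pairs and below -0.5 in 5.77%. Grouping the genes by the correlation of their residuals gave 7 modules of at least 5 genes, which held 155 of the 200 genes, and 45 genes belonged to none. The modules, numbered by size, held 42, 38, 27, 26, 9, 8 and 5 genes, and the mean r between their genes was 0.71, 0.87, 0.81, 0.63, 0.68, 0.78 and 0.70. A module's level in a fish is given as the mean over its genes of the difference from that gene's median fish, in log2 units. The genes shared these patterns with others below the edge of the rule. Among the 6531 other abundant genes, 196 correlated with module 1 above r = 0.7, 97 with module 2, 50 with module 3 and 163 with module 4.

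**Figure D3:**
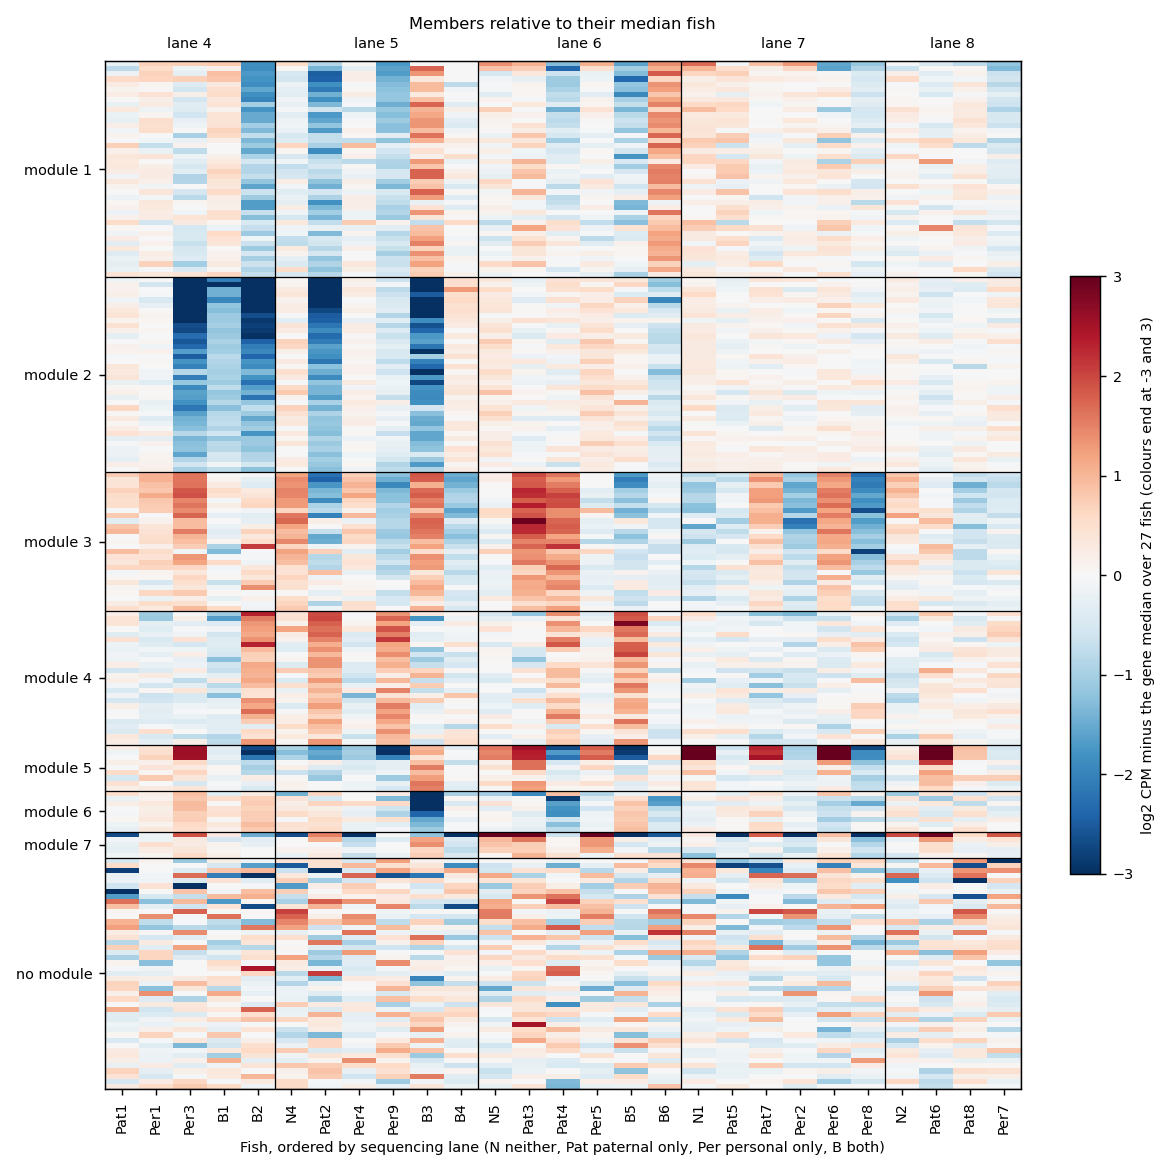
Each of the 200 genes (horizontal lines, grouped by module) in each of the 27 fish (columns, ordered by sequencing lane), as log2 CPM minus the gene's median fish; colours end at -3 and 3. Module 2 is low in 5 fish of lanes 4 and 5, module 6 in both 3, and the fish low in module 1 are high in module 4.

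Module 2 was the tightest, and its 38 genes marked out a few fish on 1 side. The level was -2.50 in personal only 3, which is 5.67-fold below the median fish. It was -2.48 in both 2, -2.21 in both 3, -1.84 in paternal only 2 and -1.06 in both 1. No fish lay more than 1 log2 unit above the median, and the remaining 22 fish were between -0.60 and 0.40. These values are levels. The modules, the lane shares and the r with depth given further on rest on residuals from the group and sex means. On that scale both 1 was at -0.17, while both 4 and both 5 stood at 1.31 and 1.22. The 5 low fish came from 4 fathers, 3 were female, and 3 belonged to the group with both exposures. All 5 had been run in lanes 4 and 5, which held 11 of the fish, and 0 of the 16 fish of lanes 6, 7 and 8 were this low. The other fish of lanes 4 and 5 lay between -0.41 and 0.29. The 5 libraries had 8293349 to 13815032 reads, around or above the median depth, and their reads in the table came to 44.6% to 46.4% of the scaled library size, against 44.97% to 46.9% in the other fish, so that paternal only 2 lay below the rest. A library's distance from the median library was also measured as the interquartile range of its differences over all genes, which was 0.346 to 0.508 log2 units in the 5 and 0.265 to 0.446 in the others. Both 3 and both 2 had the widest spread of the 27, with 0.508 and 0.463. The part of these library-wide differences in module 2 was not tested. The link to these lanes was noticed in the values, and no test beyond the lane test given further on was made of it.

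The genes most typical of module 2, by their mean r to its other genes, were ENSGACG00000010079 and ENSGACG00000006337. ENSGACG00000010079 had 7.04, 6.85, 7.03 and 7.26 log2 CPM in neither, and its lowest, median and highest values were 4.91, 6.76 and 6.95 in paternal only, 4.09, 6.81 and 7.34 in personal only and 3.91, 5.83 and 6.79 in both. ENSGACG00000006337 had 6.39, 6.16, 6.75 and 6.65 in neither, and reached down to 4.51 in paternal only, 3.77 in personal only and 3.95 in both. For both genes a single fish of each single-exposure group lay apart, whereas the fish with both exposures were divided between low and ordinary levels. Without the 4 fish farthest from the median in module 2 (personal only 3, both 2, both 3 and paternal only 2), the mean r of its genes was 0.67. Both 1, also among the low fish, was kept in that value. The genes were grouped by their correlation over these same fish, so this r is a description.

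Modules 1 and 4 ran in opposite directions, with r = -0.82 between their mean residuals. The 42 genes of module 1 were lowest in both 2 and paternal only 2, at a level of -1.16 in each, followed by personal only 9 (-0.91) and both 5 (-0.71). The same 4 fish were the only ones more than 1 log2 unit above the median in the 26 genes of module 4, with 1.07, 1.18, 1.15 and 1.27 in that order. All 4 were labelled female, they had 4 different fathers, came from 3 lanes, and had 8297168 to 55155451 reads. Without them the r between the modules was -0.65. At the other end, both 6 was highest in module 1, at 1.09, or 2.14-fold above the median fish, and both 3 followed with 0.93. In module 4 their levels were -0.11 and -0.20, while the lowest fish there was both 1 at -0.53. As residuals, the scale of the r, both 6 and both 3 were at -0.51 and -0.13 in module 4. Both 6 was also the shallowest library and had the highest share of reads in the table, 46.9%.

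ENSGACG00000020076, typical of module 1, had 6.82, 6.76, 6.20 and 6.70 log2 CPM in neither. Its lowest, median and highest values were 4.80, 6.54 and 6.81 in paternal only, 5.24, 6.38 and 6.67 in personal only and 5.00, 6.66 and 7.95 in both. The group with both exposures held low as well as high fish, and all groups overlapped. ENSGACG00000020371 followed the same fish at a higher level, from 7.06 to 10.22 within the group with both exposures. In module 4, ENSGACG00000005457 had 4.07, 4.00, 3.80 and 4.04 in neither, and its lowest, median and highest were 3.84, 4.44 and 5.45 in paternal only, 3.94, 4.24 and 5.73 in personal only and 3.89, 4.19 and 5.38 in both. ENSGACG00000002379 had a median of 5.61 and a highest value of 7.17 in the group with both exposures, and reached 6.75 and 6.70 in the highest of paternal only and personal only. The neither group held none of the 4 fish high in module 4, and all 4 of its values lay within the range of the others or just below it.

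**Figure D4:**
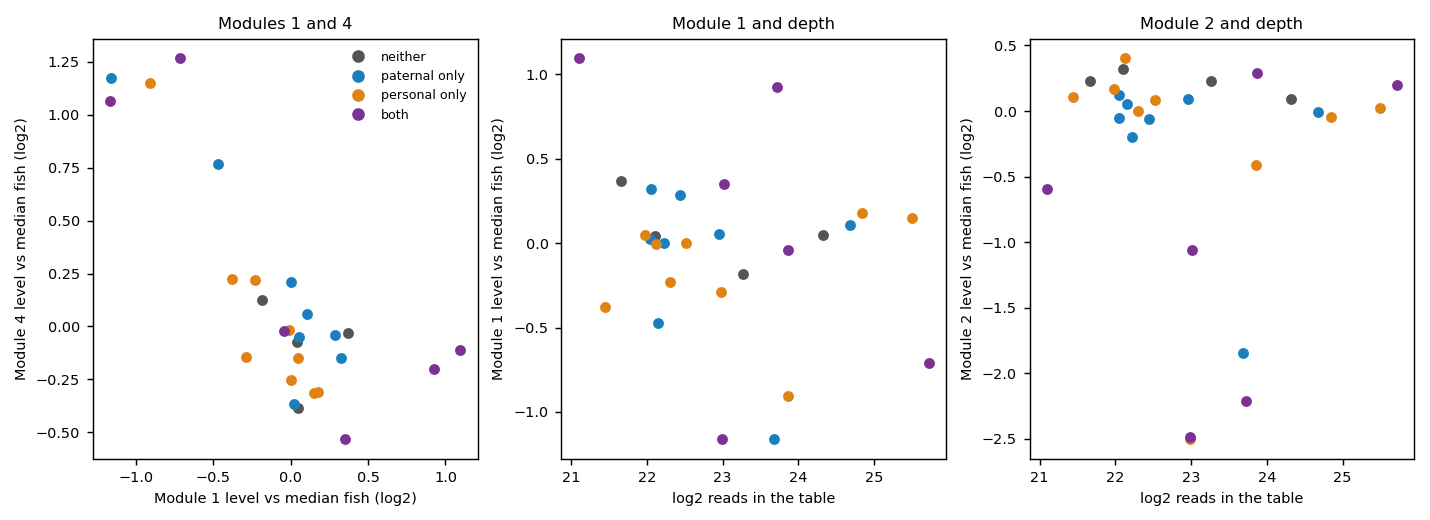
Module levels relative to the median fish, in log2 units, in the 27 fish: module 4 against module 1 (left), and modules 1 (centre) and 2 (right) against log2 of the reads in the table. Modules 1 and 4 run in opposite directions, both 6 is the shallowest library and the highest in module 1, and the 5 fish low in module 2 lie in the middle of the depth range.

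Module 3 varied over the whole set of fish rather than in a few. Of its levels, 5 were more than 1 log2 unit above the median fish: 1.59 in paternal only 3, 1.43 in paternal only 4, 1.21 in both 3, 1.06 in personal only 6 and 1.04 in personal only 3. Personal only 8 was lowest, at -1.29. High and low fish occurred in lanes 5, 6 and 7 alike. In lane 4 the levels ran from -0.06 to 1.04, with no low fish, and in lane 8 from -0.61 to 0.42. ENSGACG00000013470, typical of these 27 genes, had 3.07, 4.91, 5.58 and 4.11 log2 CPM in neither, and its lowest, median and highest values were 3.37, 4.57 and 6.66 in paternal only, 2.60, 3.90 and 5.99 in personal only and 3.19, 4.15 and 5.95 in both. ENSGACG00000007843 ran with it, from 2.13 in the lowest personal only fish to 6.30 in the highest paternal only fish. Every group spanned several-fold differences, and all overlapped. Without its 4 farthest fish the mean r of module 3 was 0.71.

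The 9 genes of module 5 had fish far from the median at both ends. In 6 fish the level was more than 1 log2 unit above the median, led by paternal only 6 at 2.02, or 4.05-fold, and neither 1 at 1.62. In 4 fish it was more than 1 below, with personal only 8 lowest at -1.26. ENSGACG00000006511 had 8.44, 4.57, 3.47 and 6.03 log2 CPM in neither, and its lowest, median and highest values were 1.71, 4.97 and 8.28 in paternal only, 1.50, 3.84 and 7.56 in personal only and 1.36, 4.10 and 5.39 in both. ENSGACG00000002409 varied less, from 2.80 in the lowest personal only fish to 6.11 in the highest paternal only fish. Module 5 ran with module 1 (r = 0.61) and module 7 (r = 0.57) and against module 4 (r = -0.58), and in 11 of 27 groupings made with 1 fish left out, only 4 or 5 of its genes stayed together.

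The 8 genes of module 6 were set mainly by both 3, whose level was -3.79, or 13.8-fold below the median fish, and by paternal only 4 at -1.23. ENSGACG00000005648 had 4.42, 4.83, 4.79 and 4.21 log2 CPM in neither, and its lowest, median and highest values were 2.73, 4.68 and 4.86 in paternal only, 3.84, 4.04 and 5.46 in personal only and 0.40, 4.82 and 5.21 in both. Its lowest value belonged to both 3, which carried 52.0% of the residual sum of squares. ENSGACG00000002622 was low in the same fish, at 1.89 in both 3 and 2.44 in paternal only 4. Without the 4 farthest fish the mean r in module 6 was 0.40, and in module 4 it was 0.33.

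The 5 genes of module 7 were led by ENSGACG00000003787. The level was highest in personal only 5 (1.70), paternal only 3 (1.40), neither 5 (1.40) and paternal only 6 (1.08), and lowest in personal only 8 (-1.43) and both 4 (-1.39). Of these high fish, personal only 5 and neither 5 are the close pair. Without both of them the highest level was 1.40, in paternal only 3, and the mean r was 0.67 in place of 0.70. With a stricter tree height of 0.4, module 7 was no longer formed. Among the 45 genes in no module, 5 were carried by a single fish. The clearest of these, chosen after its values were seen, was ENSGACG00000003069. It had a median of 4.01 log2 CPM and was at -1.09 in paternal only 1, which carried 79.9% of its residual sum of squares. In ENSGACG00000004237, also chosen after its values were seen, paternal only 3 was the high exception, with 7.62 against a median of 5.12.

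**Figure D5:**
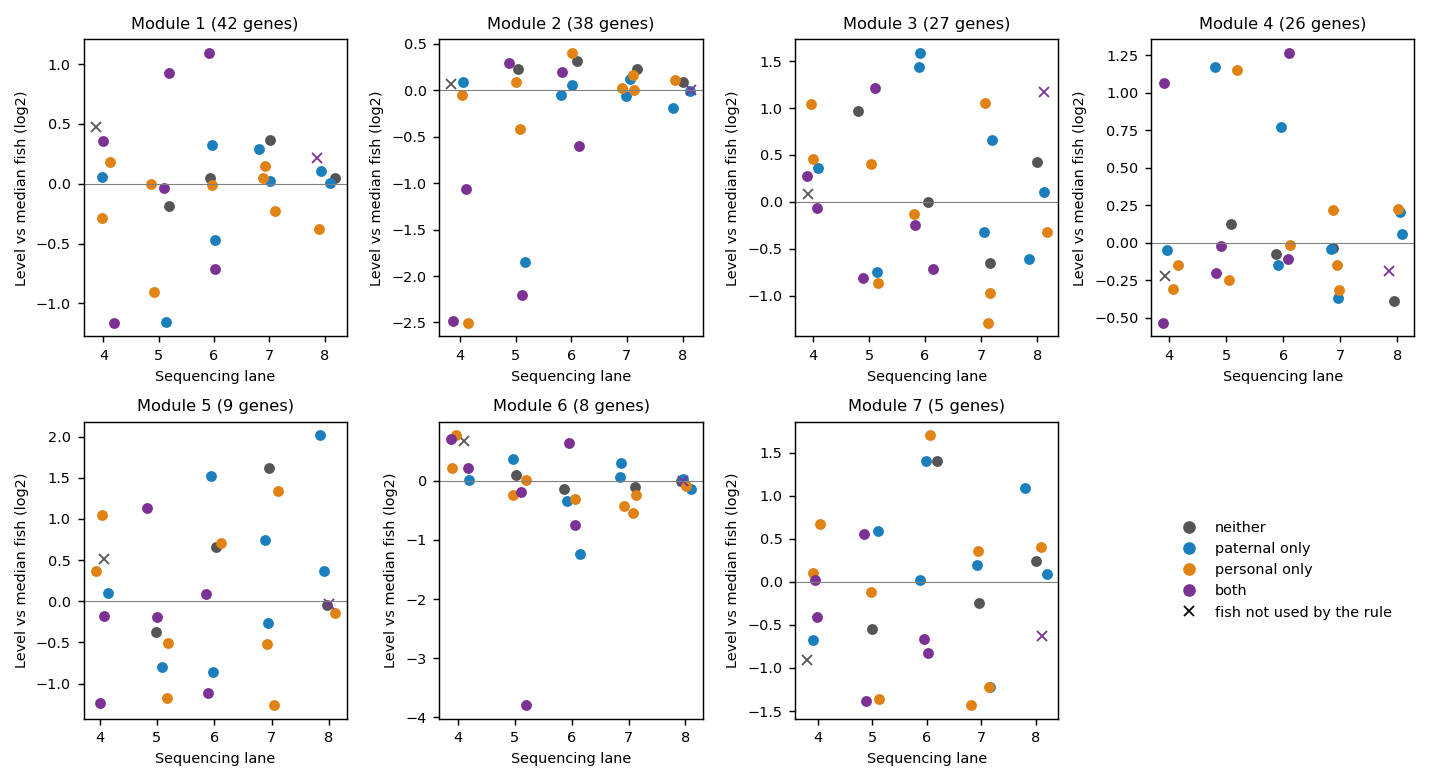
Level of each module relative to the median fish, in log2 units, by sequencing lane and coloured by exposure group; crosses are neither 3 and both 7, which the rule did not use. Points are spread sideways within a lane for legibility. The 5 lowest fish of module 2 lie in lanes 4 and 5, and module 7 has its 4 highest fish in lanes 6 and 8 and its 5 lowest in lanes 5 and 7. The close pair, neither 5 and personal only 5, is among those 4 highest fish. Modules 3 and 5 have high and low fish in the same lanes.

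Lane and depth were not terms of the rule, but spread that goes with them is part of the residual SD by which the genes were chosen. For lane, limma called 0 of the 200 genes at an adjusted p under 0.05, as it did 0% of the 16593 genes tested. Before adjustment, 3 of the 200 genes (1.5%) had a p under 0.05, against 5.67% of all genes tested. The fitted lane differences spanned a median of 0.66 log2 units in the 200 genes and 0.18 in the other abundant genes. The choice by residual SD favours wide spans and wide error alike, and its part in the count of small p was not tested. Limma-voom on the recovered reads called 0 with 9 at an unadjusted p under 0.05, against 1677 of all 16593 genes. ENSGACG00000012840 had the smallest p for lane. Its 4 neither values were 3.97, 3.45, 3.99 and 2.63 log2 CPM, and its medians in lanes 4 to 8 were 4.06, 4.38, 4.10, 3.64 and 4.57. Lanes overlapped, and the fitted lane differences spanned 0.96 log2 units (limma, adjusted p = 0.780). ENSGACG00000017768 came second, with medians of 6.53, 5.61, 5.56, 6.34 and 6.24 and an adjusted p of 0.839 in limma. Neither gene belonged to a module. In module 2 no gene had an unadjusted lane p under 0.05, the smallest being 0.0507 in limma, and lane accounted for 26.1% of the sum of squares of its mean residual. That share was 29.8% in module 7, 21.8% in module 6, 13.4% in module 3, 8.47% in module 4, 7.48% in module 1 and 3.99% in module 5. With 5 lanes and 27 fish, lane takes some share of any such sum, and these shares are not adjusted for that. In module 7 all 4 fish more than 1 log2 unit above the median were in lanes 6 and 8, and all 5 more than 1 below in lanes 5 and 7. The close pair of lane 6, neither 5 and personal only 5, is among the 4 high fish, and the 29.8% includes both. None of the 5 genes of module 7 had an unadjusted lane p under 0.05 in limma, the smallest being 0.0555. When lane was added to the model of the rule, 181 of the 200 genes were chosen again, and all 38 genes of module 2 still grouped together.

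Fish were also compared with each other over the 200 genes, each scaled to the same spread. The average r between the residuals of 2 fish was -0.013 for the 61 pairs from the same lane and -0.038 for the 290 pairs from different lanes. For the 24 pairs with the same father the average was 0.039, but the rule had removed the genes that differed most by father. The close pair, neither 5 and personal only 5, is among both the 61 and the 24 pairs. A single pair with a high r can make up much of an average this small, most of all over 24 pairs. The averages are not given without it, so neither is read as a likeness of siblings or of fish in a lane.

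For depth, taken as log2 of the reads in the table, limma again called 0 of the 200 genes at an adjusted p under 0.05, as it did 0% of all genes tested. Before adjustment, 27 genes (13.5%) had a p under 0.05, against 5.68% of all genes tested. Of these, 19 were lower in deeper libraries (background 2.31%) and 8 were higher (background 3.37%). Limma-voom called 0, with 24 of the 200 at an unadjusted p under 0.05, against 1620 of all 16593 genes. The 27 genes were unevenly placed: 12 were among the 42 genes of module 1 and 4 among the 9 of module 5, all lower with depth, and 5 among the 26 of module 4, all higher. In module 1 the slope was negative in all 42 genes, with a median of -0.15 log2 units for each doubling of depth, and in module 4 it was positive in all 26, with a median of 0.12. Genes of a module move together, so these are not separate observations. The count was 14 with lane added to the model, 15 with father as a fixed block and 16 without neither 1. Among all genes tested it was 710, 962 and 863 in that order, against 942 in the main fit. When depth was added to the model of the rule, 191 of the 200 genes were chosen again.

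The mean residual of module 1 correlated with log2 depth with Pearson's r = -0.35 and Spearman's rho = -0.30 over the 27 fish. The r was -0.25 without both 6, the shallowest library, and -0.32 without the 2 fish farthest from the median depth. Its r with the share of reads in the table was 0.51, and 0.28 without the 2 fish farthest from the median share, so that relation rests in part on those fish. With the same share, module 7 had r = -0.48, and -0.51 without those 2 fish, and module 2 had 0.46, and 0.36 without them. Module 2 had r = -0.02 and rho = -0.24 with depth. Module 4 had r = 0.31 and rho = 0.28, and module 5 r = -0.34 and rho = -0.38. In module 6 r was 0.19 and rho 0.41. Module 7 had r = -0.27 and rho = -0.31, and module 3 r = -0.22 and rho = -0.16. These are descriptions of 27 libraries that also differ in father, lane and group, and the part of depth in the modules was not tested apart from those.

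Among single genes, ENSGACG00000006713 had the smallest p for a lower level with depth. It had 6.65, 4.93, 7.49 and 7.18 log2 CPM in neither, and its lowest, median and highest values were 1.48, 6.41 and 7.16 in paternal only, 5.73, 7.05 and 7.47 in personal only and 5.87, 7.05 and 7.37 in both. Paternal only 8 alone was far below the rest. The slope was -0.57 ± 0.15 (SE) log2 units for each doubling of depth (limma, adjusted p = 0.837), and r between its residual and depth was -0.57 with paternal only 8 and -0.58 without it. ENSGACG00000005612 had the smallest p for a higher level, with 4.53, 5.47, 5.27 and 4.19 in neither and a slope of 0.23 ± 0.072 (SE; limma, adjusted p = 0.837). Neither slope passed the adjusted threshold.

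The study asks what a father's and an offspring's own experience of predation risk do to the offspring brain, and each effect was tested on the same genes. The group means do not enter the residual SD, but the residual SD sets the SE of each difference. Genes chosen for a high residual SD have wide SEs, which make a call less likely for a difference of a given size. Their estimates were wider too. The median absolute estimate was 0.260 against 0.0755 in the other abundant genes for paternal exposure, and 0.204 against 0.0596 for sex. The part of the choice in the counts of the exposure and sex tests was not tested. For paternal exposure, averaged over personal exposure, limma called 0 of the 200 genes, against 0.0121% of all genes tested. Before adjustment, 17 (8.5%) had a p under 0.05, against 10.3% of all. Limma-voom called 0 of the 200 with 16 at an unadjusted p under 0.05, against 40 and 2600 of all 16593 genes. ENSGACG00000009731 had the smallest p for a higher level, with 3.76, 3.48, 3.36 and 4.28 log2 CPM in neither and medians of 4.22 in paternal only, 3.85 in personal only and 4.18 in both. Its groups overlapped, and the difference was 0.60 ± 0.22 (SE; limma, adjusted p = 0.387). ENSGACG00000003685, of module 2, had the smallest p for a lower level, with 5.20, 4.92, 5.36 and 5.40 in neither and medians of 4.86, 4.80 and 3.70 in paternal only, personal only and both (difference -0.83 ± 0.32, SE; limma, adjusted p = 0.403). All 38 genes of module 2 had negative estimates for paternal exposure, with a median of -0.57, and 4 of its 5 low fish had exposed fathers. The estimates for personal exposure were negative in all 38 as well, with a median of -0.47, and 4 of the 5 low fish had been personally exposed. These genes fall together in the same 5 fish, so the 38 signs are not separate observations. Estimates mostly on 1 side were not particular to module 2. For personal exposure, 1 of the 27 genes of module 3 and 1 of the 9 of module 5 had positive estimates. For paternal exposure, 0 of the 8 genes of module 6 did, but 24 of the 42 of module 1 did. For the interaction of both exposures, 36 of the 42 genes of module 1 had positive estimates. Of the 27 fish, paternal only held 8, personal only 9 and both 6, and all 5 low fish were run in lanes 4 and 5. Lanes 4 and 5 held both 1 to 4, personal only 1, 3, 4 and 9, paternal only 1 and 2, and neither 4. The groups were thus unevenly spread over these lanes, and exposure and lane cannot be fully told apart in module 2.

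For personal exposure limma called 0 of the 200 genes (0% of all genes tested), and 7 genes, or 3.5%, had an unadjusted p under 0.05, against 4.72% of all. All 7 were lower (background 1.82%), 4 of them in module 2, and 0 were higher (background 2.9%). Limma-voom called 0 with 8 at that level, against 1177 of all 16593 genes. Without personal only 5, the close match of neither 5, 19 genes had an unadjusted p under 0.05, against 1066 of the 16540 tested. Without neither 5 there were 4, against 576 of 16532, with 0 called in both fits. ENSGACG00000004168 had the smallest p. Its 4 neither values were 4.79, 4.99, 5.61 and 4.66 log2 CPM, and its medians were 4.50, 4.07 and 3.19 in paternal only, personal only and both. The neither fish lay in the upper part of the range, yet every other group reached into it, and the difference was -0.80 ± 0.28 (SE; limma, adjusted p = 0.943). On the higher side, ENSGACG00000020610 had 4.59, 4.49, 4.41 and 4.24 in neither and a difference of 0.39 ± 0.19 (SE; limma, adjusted p = 0.943).

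For the interaction of both exposures limma called 0 of the 200 genes (0% of all genes tested), and 4 genes, or 2%, had an unadjusted p under 0.05, against 3.72% of all. Limma-voom called 0, also with 4, against 2 called and 1103 at that level among all 16593 genes. ENSGACG00000004186 had the smallest p, with 3.43, 4.48, 3.81 and 5.93 log2 CPM in neither and medians of 5.18 in paternal only, 4.88 in personal only and 4.22 in both. The interaction was -1.73 ± 0.62 (SE; limma, adjusted p = 0.999). On the positive side ENSGACG00000005612, already met for depth, had 0.87 ± 0.40 (SE; limma, adjusted p = 0.999). No exposure comparison thus passed the adjusted threshold in any of the 200 genes, whose wide SEs make a call less likely for a difference of a given size.

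Between the sexes, limma called 4 of the 200 genes, or 2%, against 3.67% of all genes tested. All 4 were higher in females, where the background was 3.09%, and 0 were lower, where it was 0.579%. Before adjustment, 28 (14%) had a p under 0.05, against 13% of all. Limma-voom called 10 of the 200 genes, against 1110 of all 16593 genes. ENSGACG00000004357, of module 4, ranged from 3.77 to 6.45 log2 CPM in the 16 females (median 4.81) and from 2.66 to 4.47 in the 11 males (median 3.98). The sexes overlapped over part of that range, and females were 2.20-fold higher (limma, adjusted p = 0.0120). ENSGACG00000005982 was 2.12-fold higher (adjusted p = 0.0176), ENSGACG00000007393 of module 1 was 1.71-fold higher (adjusted p = 0.0108) and ENSGACG00000012758 of module 4 was 1.53-fold higher (adjusted p = 0.0334). ENSGACG00000006670 had the smallest p for a lower level in females, with a difference of -0.53 ± 0.18 (SE; limma, adjusted p = 0.127). The 2 large modules that ran in opposite directions held most of the genes at an unadjusted p under 0.05: 11 in module 4, all higher in females, and 11 in module 1, of which 2 were higher in females. All 4 fish high in module 4 were female, and their part in these counts was not tested.

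The libraries that the rule did not use gave a separate look at the same genes. They were compared with the median of the 27 fish, since the group means of these genes include the extreme fish on which they were chosen. In both 7, 11.5% of the 200 genes were more than 2-fold from their median fish, and 0.0306% of the other abundant genes were. In the 27 fish themselves the share of the 200 genes ran from 3.5% to 50%, with a median of 11%. In module 3 its level was 1.17, with all 27 genes at or above their median fish, while it lay at the median fish in module 2 and at 0.21 in module 1. Both 7 is labelled male, but 3 of the 4 genes called between the sexes exceeded the highest labelled male in it: ENSGACG00000004357 had 4.60 log2 CPM, ENSGACG00000005982 4.89 and ENSGACG00000007393 6.97. The highest labelled males had 4.47, 4.62 and 6.28 log2 CPM in that order. ENSGACG00000012758, with 4.27, lay within the male range. The genes called between the sexes outside the 200 were not examined in both 7. In neither 3 the 200 genes did not stand out, since 31% of them and 35.0% of the other abundant genes were more than 2-fold from their median fish.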

How the data were processed

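RNA of single whole brains was enriched for poly-A RNA and sequenced from 1 end of the fragments, per the labels' protocols, and lanes were read from the library titles. The submitters' processing notes name edgeR, HTSeq 0.6.1, TopHat2 2.0.8 and CASAVA 1.8.2. For the genome build they name a mouse assembly, so no coordinates are printed. The authors deposited log2 CPM values with a small prior, whose floor is -6.77. Values above it were whole multiples of 1 read in 100% of cases (within 0.01 reads), which gave the depth of each library. PCR copies were not told apart, so read-sampling SDs cover counting error only. Whether counting used strand is not given, so overlapping genes on opposite strands may affect each other's counts. How reads that match close paralogs were counted was not examined.

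The share of reads in the table is the recovered reads as a percent of the scaled library size that the deposited values imply. Residuals of the rule's model were grouped by average linkage on 1 minus Pearson's r at height 0.5. Tests used limma-trend (R 4.3.3 with statmod 1.5.0 and limma 3.58.1) on the values of 16593 genes above 0 log2 CPM in at least 5 libraries, with group and sex, father as random block, and Benjamini-Hochberg adjustment over all 16593. Lane or log2 depth was added for its own test. The fits were tested on simulated data. Python 3.11.15, numpy 2.4.6, scipy 1.17.1 and pandas 2.3.3 did the rest.

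The genes, the rules and the tests were chosen with earlier results of these data known. Genes are named by rule: the 3 of highest residual SD, 2 typical genes in each of modules 1 to 6, the smallest p per test and side (2 for lane), the genes called between the sexes, and the edge of the rule. Replicate numbers were given in deposition order and pair nothing. Alternatives covered the level and father filters, the father, lane and depth terms, limma-voom, normalization, the linkage, and leaving out fish.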

Additional observations from a re-analysis of the deposited data

Results flagged for a closer look

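Within a group, 25 of the 140 sets of values examined held a fish far from the rest of its group by Dixon's test, where chance picks out about 1 in 20 sets. The genes were chosen for their spread within groups, so that rate does not apply to them and the values are descriptions. The genes of a module also share their fish. All values are log2 CPM, or log2 units against the median fish for module levels.

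In paternal only, fish 2 was the lowest in module 2 (-1.84), ENSGACG00000014031 (3.67), ENSGACG00000011018 (2.67), ENSGACG00000010079 (4.91), ENSGACG00000006337 (4.51), ENSGACG00000003685 (3.38), ENSGACG00000006670 (3.26) and ENSGACG00000008810 (3.39). In personal only, fish 3 was the lowest in module 2 (-2.50), ENSGACG00000014031 (-2.54), ENSGACG00000011018 (-1.83), ENSGACG00000010079 (4.09) and ENSGACG00000006337 (3.77). In the group with both exposures, 3 of 6 fish were low in module 2, so none lay apart there.

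Personal only 9 was the highest of its group in module 4 (1.15) and ENSGACG00000002379 (6.70) and the lowest in ENSGACG00000020076 (5.24), the module 1 gene. Both 3 was the lowest of its group in module 6 (-3.79) and ENSGACG00000005648 (0.40), and the highest in ENSGACG00000004168 (4.82). Paternal only 4 was the lowest of its group in module 6 (-1.23), ENSGACG00000005648 (2.73) and ENSGACG00000002622 (2.44).

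Paternal only 8 was lowest in ENSGACG00000006713 (1.48), paternal only 6 highest in ENSGACG00000020610 (5.90) and paternal only 3 highest in ENSGACG00000020333 (6.27), the first gene outside the rule.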

How the results depend on the processing

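Of 684 comparisons of 41 results with an alternative, 633 kept their direction and call or stayed within 1.5 times, and 0 reversed. Only estimates of single genes could be scored as reversed, and the other results are counts or mean r. For lane, depth and the exposures, the 0 genes called stayed 0 in every fit, which counts as the same. A level filter of at least 3 or 5 log2 CPM kept 98 or 99 of the 200 genes, and complete linkage gave 12 modules. With 1 fish left out, 182 to 196 genes were chosen again, 151 to 160 lay in a module, and 6 to 9 modules formed. Module 2 kept all 38 genes in each of the 27 groupings.

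Module 7 had 0 of its 5 genes together at tree height 0.4 and 1 with complete linkage, which also kept 20 of 42 genes of module 1, 28 of 38 of module 2, 12 of 26 of module 4 and 5 of 9 of module 5. With Spearman correlation, 17 of 26 genes of module 4, 4 of module 5, 5 of 8 of module 6 and 3 of module 7 stayed together, and with father in the model 4 of module 5.

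Counts at an unadjusted p under 0.05 also moved. For lane the 3 genes became 7 without a father term, 9 in limma-voom, 13 with all 29 libraries and 5 with depth added. Among all genes tested (16593, or 16660 with all 29 libraries) the counts were 880, 1677, 576 and 878 in that order. The main fit had 941. For depth the 27 became 15 with father as a fixed block and 14 with lane added (962 and 710 of all genes, 942 in the main fit). For paternal exposure the 17 became 27 without a father term and 11 with lane added (2633 and 1719 of all genes, 1717 in the main fit). For personal exposure the 7 became 13 with all 29 libraries (1247 of all genes, 784 in the main fit). For the interaction the 4 became 8 with father as a fixed block, 7 with all 29 libraries and 2 with lane added. Among all genes these counts were 713, 1797 and 553, against 617 in the main fit. For sex the 28 became 16 with father as a fixed block (1676 of all genes, 2162 in the main fit). The 4 called genes became 10 in limma-voom (1110 of all genes, 609 in the main fit). With 1 neither fish or personal only 5 left out, the counts ran from 2 to 5 for lane, 16 to 28 for depth, 7 to 13 for paternal exposure, 4 to 19 for personal exposure and 2 to 5 for the interaction. ENSGACG00000007393 lost its call between the sexes with all 29 libraries (difference 0.65, adjusted p = 0.0684), and ENSGACG00000006670 gained one in limma-voom (-0.60, adjusted p = 0.0497). The causes of these moves were not tested. Replicate numbers follow deposition order and pair nothing. Siblings are compared within fathers in the fit with father as a fixed block.

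Each lane held 4 to 6 fish and the group with neither exposure 4, which limits the precision of each difference. Gene names were not at hand, and cell types were not examined.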
